A study of Mus musculus with 8 samples.

Results

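This account follows 7 genes of cholesterol efflux and its control by liver X receptors (LXRs) in nuclear RNA of mouse embryonic stem cells: Nr1h3, Nr1h2, Abca1, Abcg1, Mylip, Smpdl3a and Soat1. They are 7 of the 54446 genes counted in each library, found by matching Ensembl identifiers to these symbols in GENCODE M21, and all 7 passed the filter on low counts that kept 21782 genes. They were chosen by pathway with results of these data in view: the measured values behind the choice are those of Abca1 and Abcg1, selected on their low levels in Mettl3 CKO libraries. Values of the 7 genes in Mettl3 CKO against Mettl3 control are therefore described without a test. The tested comparison is Mettl14 CKO against Mettl14 control, whose groups hold other libraries. It is not fully separate, because the filter, the scaling and the estimate of spread came from a fit of all 8 libraries.

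The 8 libraries form 4 groups of 2: Mettl14 CKO, Mettl14 control, Mettl3 CKO and Mettl3 control. CKO stands in the labels and is read here as conditional knockout. METTL3 is the catalytic subunit and METTL14 the partner subunit of the enzyme that places N6-methyladenosine (m6A) on RNA. All cells were C57BL/6 embryonic stem cells grown in medium with serum, LIF, CHIR99021 (a GSK3 inhibitor) and PD0325901 (a MEK inhibitor), and nuclear RNA was depleted of ribosomal RNA before stranded library preparation. The labels and protocols name neither the exons removed nor the recombinase, the time after deletion or the number of clones. Whether the libraries of a group are separate cultures is not stated either, so p-values reflect only the spread between these libraries, which may be technical.

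LXRs are nuclear receptors that bind oxysterols, oxidised forms of cholesterol, and act as pairs with retinoid X receptors (RXRs). When cells hold much sterol, LXRs switch on genes that export cholesterol and limit its uptake, and the SREBP2 transcription factor, which drives sterol synthesis and uptake, is held back. When sterol is scarce the opposite state prevails, so LXR targets and SREBP2 targets are often seen to move in opposite directions.

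The best known LXR binding element is a DR4, a repeat of the half-site AGGTCA with 4 bases between. The Abca1 promoter is printed here because Abca1 is the member with the largest difference between groups, and because it was the only member whose window held a motif that was searched. RefSeq windows from 250 bases before to 50 bases after the gene start (GRCm38.p6) were found for 5 of the 7 genes, in 6 windows; Abcg1 and Smpdl3a had no entry. Both strands were searched for the DR4, AGGTCA, any 4 bases and AGGTCA again, with at most 3 mismatches in its fixed letters, for the E-box CACGTG and for the sterol regulatory element TCACNCCAC, the last 2 without mismatch. Capitals mark the matches in the Abca1 window at chr4:53159846-53160145, minus strand, read 5′ to 3′ along the gene.
Abca1 promoter: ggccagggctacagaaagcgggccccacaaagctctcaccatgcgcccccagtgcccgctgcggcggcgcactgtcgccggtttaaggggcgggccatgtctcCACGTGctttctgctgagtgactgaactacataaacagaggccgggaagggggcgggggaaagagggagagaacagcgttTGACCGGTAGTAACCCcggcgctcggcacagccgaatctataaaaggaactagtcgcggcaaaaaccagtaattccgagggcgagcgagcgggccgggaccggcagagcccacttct
DR4 match, other strand: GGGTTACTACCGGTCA

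The DR4 match lay on the strand opposite to the gene, from base -67 to base -52 counted from the start, and had 3 mismatches. The E-box lay from base -147 to base -142. Such matches are common: 21.9% of 32851 RefSeq promoter windows held a DR4 match by this rule, 7.15% an E-box and 1.24% the sterol regulatory element. The windows of Nr1h3, Nr1h2, Mylip and Soat1 held none of these letters, which says nothing about binding elsewhere.

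The labels were first checked on the targeted genes. Mettl14 had 27.8 and 30.2 CPM (the count scaled to library size, with TMM factors) in Mettl14 CKO libraries, against 58.3 and 55.0 CPM in Mettl14 control. Mettl3 had 19.8 and 18.6 CPM in Mettl3 CKO, against 37.9 and 36.1 CPM in Mettl3 control. Mean CPM was thus 51.2% of control for Mettl14 and 51.9% for Mettl3, each in its own line. In the Mettl3 line, Mettl14 had 30.1 and 26.7 CPM in Mettl3 control and 29.6 and 28.7 CPM in Mettl3 CKO. These values lie near those of Mettl14 CKO, so the Mettl14 level marks the deletion only against Mettl14 control. Total counts ran from 17235889 to 20086128 per library. Stem cell identity was checked on 8 markers, all of them detected in every library (Pou5f1, Sox2, Nanog, Esrrb, Klf4, Zfp42, Dppa5a and Utf1); their summed level was 1250 to 1265 CPM in Mettl14 CKO, 2041 to 2047 CPM in Mettl14 control, 666 to 676 CPM in Mettl3 CKO and 706 to 715 CPM in Mettl3 control. Fibroblast markers were present too, though unevenly, with none of the 10 listed genes at 0 throughout. Lum had only 0 to 12 counts per library, and Dcn and Thy1 reached at most 4.30 and 4.96 CPM. Pdgfra stayed at 5.81 to 7.91 CPM over all libraries. The sum of all 10, mostly Col1a1, Col1a2 and Fbln2, was 1282 to 1286 CPM in Mettl14 CKO and 617 to 619 CPM in Mettl14 control. It was 6605 to 6663 CPM in Mettl3 CKO and 5408 to 5589 CPM in Mettl3 control. All 8 stem cell markers fell in Mettl14 CKO, where 22.4% of all tested genes fell. In Mettl3 CKO 1 of these markers rose and 3 fell, beside 15.1% and 5.78% of all tested genes. The part of these markers in the members' values was not tested.

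The genes differed widely in level. Scaled to exon length, the LXR-beta gene Nr1h2 was highest, at 12.4 to 14.7 CPM per kb over the 8 libraries. Soat1 (5.08 to 6.95 CPM per kb) and Abca1 (1.81 to 7.99 CPM per kb) overlapped below it. Smpdl3a (0.465 to 2.26 CPM per kb) and Mylip (0.898 to 1.91 CPM per kb) overlapped with each other in turn. Nr1h3, at 0.250 to 0.572 CPM per kb, and Abcg1, at 0.182 to 0.398 CPM per kb, were lowest and overlapped as well. Abca1 was the gene of the set whose level spanned the widest range in CPM.

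**Figure D1:**
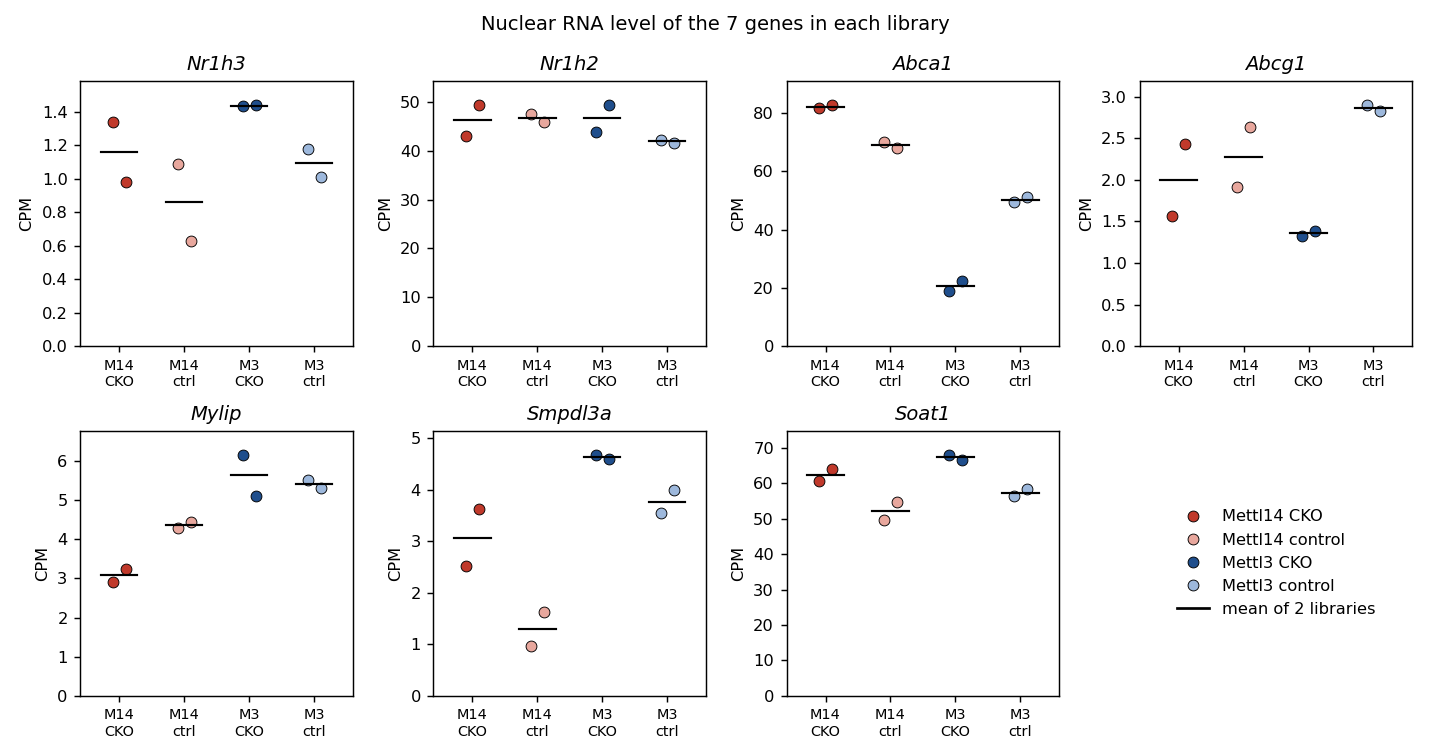
CPM (TMM-scaled, linear axis from 0) of the 7 genes in each library; points are libraries, lines are means of the 2 libraries of a group, and M14 and M3 stand for the Mettl14 and Mettl3 lines. Abca1 sits at 18.8 and 22.3 CPM in Mettl3 CKO and between 49.5 and 82.8 CPM in the other libraries.

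The receptors come first in the pathway. Nr1h2 (ENSMUSG00000060601.13, chromosome 7, 44549616 to 44553951, minus strand, mm10) encodes LXR-beta, which is made in most tissues. It had 43.1 and 49.4 CPM in Mettl14 CKO, against 47.5 and 46.0 CPM in Mettl14 control. The groups overlapped, and the log2 fold change was -0.01 ± 0.06 (SE, edgeR adjusted p = 0.9, approximate 95% interval -0.14 to 0.11). In the Mettl3 line Nr1h2 had 43.9 and 49.4 CPM in Mettl3 CKO and 42.2 and 41.7 CPM in Mettl3 control, a log2 fold change of 0.15 ± 0.06 (SE). Its level thus lay within a narrow band in all 8 libraries.

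Nr1h3 (ENSMUSG00000002108.10, chromosome 2, 91184061 to 91202834, minus strand) encodes LXR-alpha, the form prominent in liver, fat and macrophages. It was barely detected, with 10 to 27 counts per library. It had 1.34 and 0.982 CPM in Mettl14 CKO, against 1.09 and 0.628 CPM in Mettl14 control. These groups overlapped, with a log2 fold change of 0.43 ± 0.41 (SE, edgeR adjusted p = 0.439, approximate 95% interval -0.38 to 1.24), so this depth leaves a wide range of changes. Without Mettl14 CKO replicate 1 the value was 0.20. Leaving out Mettl14 control replicate 1 gave 0.86, and leaving out Mettl14 control replicate 2 gave 0.09; it was called in none of these. In Mettl3 CKO it had 1.43 and 1.44 CPM, against 1.18 and 1.01 CPM in Mettl3 control (log2 fold change 0.39 ± 0.36, SE). Gm13783, on the same strand, shares exons with Nr1h3 but averaged 0.141 CPM.

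Among the receptors' partners, Rxra had 12.5 and 14.2 CPM in Mettl14 CKO, against 11.6 and 12.0 CPM in Mettl14 control, and did not pass the test (log2 fold change 0.18 ± 0.11, SE, edgeR adjusted p = 0.225). Rxrb fell in Mettl14 CKO, to 16.6 and 14.8 CPM, against 21.4 and 19.5 CPM in Mettl14 control (-0.38 ± 0.10, SE, edgeR adjusted p = 0.00071). Rxrg had at most 24 counts in any library. In Mettl3 CKO, Rxra rose by 0.31 ± 0.10 on the log2 scale (SE, edgeR adjusted p = 0.0101), and Rxrb did not pass the test at -0.04 ± 0.10 (edgeR adjusted p = 0.851).

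Over the whole list of 16 receptor partners and coregulators, which holds the RXRs, the NCoR corepressor complex and p160 and p300 coactivators, 0 rose and 12 fell in Mettl14 CKO, with a median change of -0.27 (log2). Over all genes tested in that comparison 18.0% rose and 22.4% fell, and the median was 0.03. The coactivator gene Ncoa3 fell by 0.43 on the log2 scale (SE 0.03, edgeR adjusted p = 7.08e-31), to 382.1 and 379.5 CPM in Mettl14 CKO, against 517.0 and 509.1 CPM in Mettl14 control. In Mettl3 CKO 10 of the 16 rose and 0 fell, with a median of 0.16, beside 15.1% of all tested genes that rose, 5.78% that fell and a median of 0.03. The genes that fell in Mettl14 CKO included the corepressor Ncor1 and coactivators (Ncoa1, Ncoa2, Ncoa3, Ep300, Crebbp). Those that rose in Mettl3 CKO likewise held both kinds (Hdac3 of the corepressor complex, and Ncoa1, Ncoa2, Ncoa3, Ep300 and Crebbp). All listed genes but Rxrg lie in the sixth to eighth parts when tested genes are cut into 8 parts by abundance. The medians of these parts, in rising abundance, were -0.04, -0.09 and -0.15 in Mettl14 CKO. In Mettl3 CKO they were 0.12, 0.10 and 0.05, and upper-quartile scaling shifts that comparison by a median of -0.11. The part of these shifts in the list's values was not tested.

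Abca1 (ENSMUSG00000015243.4, chromosome 4, 53030787 to 53159895, minus strand) encodes the transporter that loads cellular cholesterol and phospholipid onto apolipoprotein A-I. In Mettl3 CKO it had 353 and 418 counts, or 18.8 and 22.3 CPM, against 1006 and 1013 counts, or 49.5 and 51.3 CPM, in Mettl3 control. Both Mettl3 CKO libraries lay far below the other 6 libraries. The mean was 20.5 ± 2.50 CPM in Mettl3 CKO and 50.4 ± 1.27 CPM in Mettl3 control (SD, n = 2 each), 40.7% of control, with a log2 fold change of -1.30 ± 0.07 (SE). By this fit it was the lowest value of 10099 well-expressed genes (average log2 CPM 3 or more); among all 21782 tested genes, low-count ones included, Abca1 ranked 622 from the lowest and Abcg1 992. These ranks describe the choice of the genes and are not a test of it.

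In Mettl14 CKO the same gene was higher. Abca1 had 81.7 and 82.8 CPM in Mettl14 CKO, against 70.2 and 68.2 CPM in Mettl14 control, and the groups did not overlap. The mean was 82.3 ± 0.785 CPM in Mettl14 CKO and 69.2 ± 1.44 CPM in Mettl14 control (SD, n = 2 each). It rose by 0.25 ± 0.05 on the log2 scale (SE, edgeR adjusted p = 2.76e-05), a 1.19-fold change. Among genes of like abundance, the seventh eighth of all tested genes, the median log2 fold change was -0.09 in Mettl14 CKO and 0.10 in Mettl3 CKO. As these are bulk samples, fewer cells that make a transcript and less of it per cell cannot be told apart.

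Abcg1 (ENSMUSG00000024030.6, chromosome 17, 31057675 to 31117988, plus strand) encodes a half-transporter that passes cholesterol to high-density lipoprotein particles. It had 25 to 59 counts per library, and in Mettl3 CKO it stood at 1.33 and 1.39 CPM, against 2.90 and 2.83 CPM in Mettl3 control. The 2 groups were well apart, with a log2 fold change of -1.08 ± 0.28 (SE). In Mettl14 CKO it had 1.56 and 2.43 CPM, against 1.92 and 2.64 CPM in Mettl14 control. Here the groups overlapped and the test was not passed (log2 fold change -0.18 ± 0.29, SE, edgeR adjusted p = 0.653, approximate 95% interval -0.74 to 0.38). Both efflux transporters were thus low in Mettl3 CKO libraries; in Mettl14 CKO a change of Abca1 passed the test and one of Abcg1 was not detectable at this depth.

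Abcg1 lies in the third eighth of tested genes by abundance. The median change of that eighth on the log2 scale was -0.09 in Mettl3 CKO and 0.16 in Mettl14 CKO, and in the lowest eighth the medians were -0.52 in Mettl3 CKO and 0.63 in Mettl14 CKO. The lowest-count genes thus had medians below 0 in Mettl3 CKO and above 0 in Mettl14 CKO, and the part of this in the Abcg1 values was not tested.

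**Figure D2:**
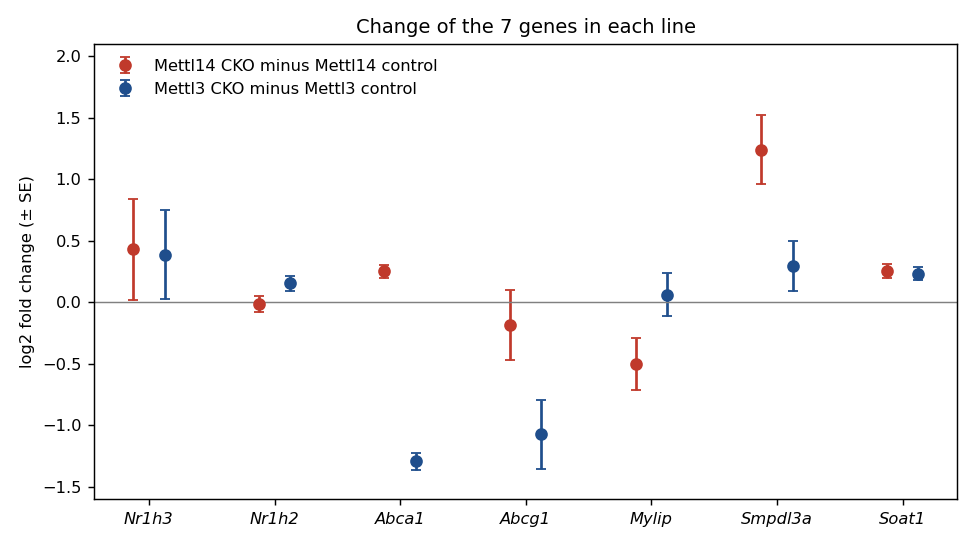
Log2 fold change (CKO minus control of the same line) with its standard error from the edgeR fit for the 7 genes; red is the Mettl14 line and blue the Mettl3 line, each from 2 against 2 libraries. Abca1 lies at 0.25 in the Mettl14 line and at -1.30 in the Mettl3 line, while Soat1 lies at 0.26 and 0.23.

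Mylip (ENSMUSG00000038175.10, chromosome 13, 45389742 to 45412022, plus strand) encodes IDOL, a ubiquitin ligase induced by LXR that marks lipoprotein receptors for degradation. In Mettl14 CKO it had 2.90 and 3.25 CPM, against 4.29 and 4.46 CPM in Mettl14 control. The groups did not overlap, and Mylip fell by 0.50 ± 0.21 on the log2 scale (SE, edgeR adjusted p = 0.0452). This call is marginal: it was kept in 5 of 15 alternative settings, over which the adjusted p ran from 0.0325 to 0.224, and it was lost without any 1 of the 4 Mettl14 line libraries (edgeR adjusted p 0.0719 to 0.224) and without Mettl3 CKO replicate 1 (0.0505). In the Mettl3 line the groups overlapped, at 6.16 and 5.12 CPM in Mettl3 CKO and 5.51 and 5.31 CPM in Mettl3 control (log2 fold change 0.06 ± 0.17, SE).

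Smpdl3a (ENSMUSG00000019872.13, chromosome 10, 57794335 to 57811830, plus strand) encodes an acid sphingomyelinase-like phosphodiesterase and is known as an LXR target in human macrophages. In Mettl14 CKO it had 45 and 70 counts, or 2.51 and 3.62 CPM, against 15 and 26 counts, or 0.960 and 1.63 CPM, in Mettl14 control. The groups did not overlap, though the libraries of each group differed widely. Smpdl3a rose by 1.24 ± 0.28 on the log2 scale (SE, edgeR adjusted p = 9.89e-05), the largest change of the 7 genes in Mettl14 CKO. In Mettl3 CKO it had 4.68 and 4.59 CPM, against 3.54 and 4.0 CPM in Mettl3 control (log2 fold change 0.30 ± 0.20, SE). In the same Mettl14 CKO libraries 8 of 9 tested fibroblast markers rose, beside 18.0% of all tested genes. In Mettl3 CKO 4 of the 9 rose and 1 fell, beside 15.1% and 5.78% of all tested genes. The part of these markers in the levels of Smpdl3a and of the other members was not tested. Macrophage markers, checked because these cells are rich in ABCA1, ABCG1 and LXR-alpha, were low: the 10 together summed to 15.9 to 28.9 CPM over the 8 libraries, mostly Cd68, and none of them was at 0 throughout. The 8 hepatocyte and endoderm markers, mostly Apob, summed to 14.9 to 51.6 CPM, and none was at 0 throughout.

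Soat1 (ENSMUSG00000026600.12, chromosome 1, 156424525 to 156474331, minus strand) encodes ACAT1, the enzyme that esterifies free cholesterol for storage in droplets and so draws on the same pool as efflux. It had 60.6 and 64.1 CPM in Mettl14 CKO, against 49.7 and 54.7 CPM in Mettl14 control. The groups did not overlap, and Soat1 rose by 0.26 ± 0.06 on the log2 scale (SE, edgeR adjusted p = 5.37e-05). In Mettl3 CKO it had 68.1 and 66.7 CPM, against 56.5 and 58.3 CPM in Mettl3 control, a log2 fold change of 0.23 ± 0.05 (SE). It was thus higher in both CKO groups than in their own controls.

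In all, 3 of the 7 genes rose in Mettl14 CKO (Abca1, Smpdl3a and Soat1), 1 fell (Mylip) and 3 did not pass the test (Abcg1, Nr1h2 and Nr1h3). Over all 21782 genes tested 40.4% were called in this comparison, so 4 of 7 is not far from the background. The groups were apart upward for 3 members, beside 34.8% of all tested genes, and downward for 1, beside 33.3%. In Mettl3 CKO, where 20.9% of all tested genes were called and no test is given for the members, both libraries lay below both controls for 2 of the 7 genes (Abca1 and Abcg1) and above them for 4 (Nr1h2, Nr1h3, Smpdl3a and Soat1), and Mylip overlapped. Such separation was seen downward in 24.2% and upward in 32.5% of all tested genes. Abca1 and Abcg1 were chosen for these low values, so their downward separation describes the choice and is not a result beside that share. The Mettl3 fold changes of Soat1 and Nr1h2 depend on scaling: upper-quartile scaling shifts all genes by a median of -0.11 in that line, and then gave 0.12 for Soat1 and 0.04 for Nr1h2.

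The wider pathway was read from lists drawn from general knowledge, with earlier results of these data known. Of 24 other LXR targets, 19 were tested; 12 rose and 3 fell in Mettl14 CKO (median log2 fold change 0.32), beside 18.0% and 22.4% of all tested genes and their median of 0.03. In Mettl3 CKO 11 rose and 1 fell (median 0.21), beside 15.1% and 5.78% of all tested genes and their median of 0.03. Several of the risers, among them Srebf1, Scd1, Scd2, Fasn and Npc1, are also known targets of SREBP factors, so the list does not read LXR alone. The fatty acid synthase gene Fasn had 1036 and 1029 CPM in Mettl14 CKO, against 555.2 and 548.7 CPM in Mettl14 control, and 881.3 and 881.9 CPM in Mettl3 CKO, against 645.4 and 670.7 CPM in Mettl3 control. It rose by 0.90 ± 0.02 in Mettl14 CKO (SE, edgeR adjusted p = 2.77e-68) and by 0.42 ± 0.02 in Mettl3 CKO (SE, edgeR adjusted p = 3.47e-33).

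Srebf1, which encodes SREBP1 and is a direct LXR target in liver, rose in both lines as well. It had 96.6 and 99.7 CPM in Mettl14 CKO, against 50.7 and 49.7 CPM in Mettl14 control (log2 fold change 0.97 ± 0.05, SE, edgeR adjusted p = 4e-38). In Mettl3 CKO it had 91.3 and 98.5 CPM, against 80.7 and 80.1 CPM in Mettl3 control (0.24 ± 0.05, SE, edgeR adjusted p = 1.05e-05). Apoe, a secreted acceptor of cholesterol, rose by 0.79 ± 0.02 in Mettl14 CKO (SE, edgeR adjusted p = 1.61e-64), with 4109 and 4076 CPM in Mettl14 CKO against 2390 and 2347 CPM in Mettl14 control. In Mettl3 CKO its rise was 0.09 ± 0.02 (SE, edgeR adjusted p = 0.00158), under the median shift that upper-quartile scaling makes. The 1 listed LXR target that fell in Mettl3 CKO was Apoc1, an apolipoprotein gene, at -0.32.

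**Figure D3:**
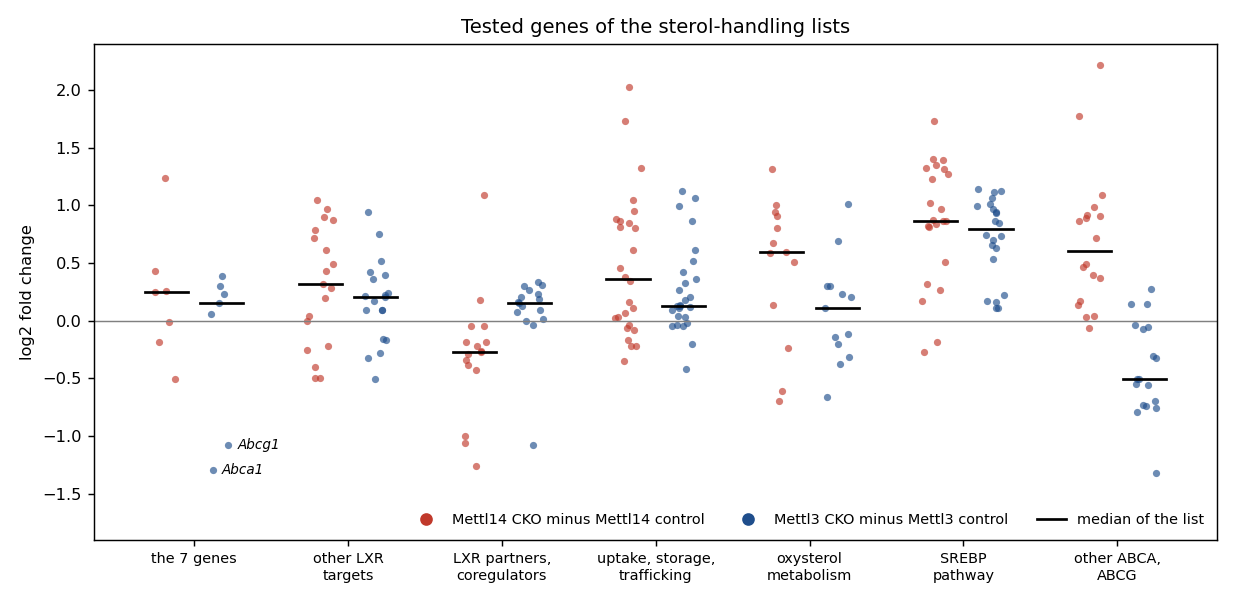
Log2 fold change (CKO minus control of the same line) of every tested gene in 7 lists; red is the Mettl14 line, blue the Mettl3 line, points are genes and black lines are medians of a list, with points spread sideways for legibility. Abca1 and Abcg1 lie at -1.30 and -1.08 in the Mettl3 line, while the other LXR targets have a median of 0.21 there.

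Genes of the SREBP pathway went up in both lines: 20 of 22 rose and 1 fell in Mettl14 CKO (median 0.87), and 20 of 22 rose and 0 fell in Mettl3 CKO (median 0.80). Of all tested genes 18.0% rose and 22.4% fell in Mettl14 CKO, and 15.1% rose and 5.78% fell in Mettl3 CKO. Cyp51, the lanosterol demethylase of cholesterol synthesis, rose by 1.39 ± 0.03 in Mettl14 CKO (SE, edgeR adjusted p = 6.59e-78) and by 1.12 ± 0.04 in Mettl3 CKO (SE, edgeR adjusted p = 1.72e-58). Abca1 thus lay on the opposite side from these genes in Mettl3 CKO and on the same side in Mettl14 CKO. In uptake, storage and trafficking, 26 of 27 listed genes were tested; 14 rose and 1 fell in Mettl14 CKO (median 0.36), and 10 rose and 0 fell in Mettl3 CKO (median 0.13), read against the same shares. Lrp1, a large endocytic receptor, rose by 0.81 ± 0.03 in Mettl14 CKO (SE, edgeR adjusted p = 2.76e-59) and by 0.27 ± 0.02 in Mettl3 CKO (SE, edgeR adjusted p = 9.57e-20).

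The control cells of the lines also differed. Abca1 had 70.2 and 68.2 CPM in Mettl14 control and 49.5 and 51.3 CPM in Mettl3 control, and Abcg1 had 1.92 and 2.64 CPM in Mettl14 control and 2.90 and 2.83 CPM in Mettl3 control. No test is given for these 2 genes, because the Mettl3 control libraries took part in their choice. Genes of the abundance of Abca1 had a median log2 fold change of 0.35 (Mettl14 control over Mettl3 control), beside 0.46 ± 0.06 (SE) for Abca1, which ran from 0.24 with upper-quartile scaling to 0.60 without the low-count filter. Smpdl3a was lower in Mettl14 control, with 0.960 and 1.63 CPM, than in Mettl3 control, with 3.54 and 4.0 CPM (log2 fold change -1.53 ± 0.27, SE, edgeR adjusted p = 2.55e-07). Nr1h2 was higher in Mettl14 control by 0.16 ± 0.06 (SE, edgeR adjusted p = 0.0262) and Soat1 lower (-0.14 ± 0.06, SE, edgeR adjusted p = 0.027). Both calls are fragile: upper-quartile scaling, which shifts this comparison by a median of -0.22, turned Nr1h2 to -0.06, and the Soat1 call was kept in 5 of 15 alternative settings and lost without any 1 library other than Mettl14 control replicate 2 (log2 fold change -0.13 to -0.01 where it was lost). Mylip and Nr1h3 did not pass the test (edgeR adjusted p = 0.14 and 0.446). With 67.8% of all genes called between the controls, 3 of 5 tested members is no more than the background; 33.6% were higher and 34.1% lower in Mettl14 control by the test. Of these 5, Nr1h2 lay apart upward and Smpdl3a, Soat1 and Mylip downward, beside 39.2% and 44.2% of all tested genes.

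Across the 8 libraries the genes whose log2 CPM followed Abca1 most closely were sought among 9506 protein-coding genes that averaged 3 or more in log2 CPM. By Pearson correlation, 4 of the closest were Lama1 (r = 0.991), a laminin chain gene, Pms2 (0.986), a mismatch repair gene, 2310003L06Rik (0.975) and Mettl3 itself (0.970). The 8 points fall into 4 groups of 2 and all values come from the same libraries, so these figures describe the order of the groups. The Mettl3 CKO values on which Abca1 was chosen are among the 8 points. In Mettl3 CKO these 4 genes had log2 fold changes from -0.97 to -0.30.

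**Figure D4:**
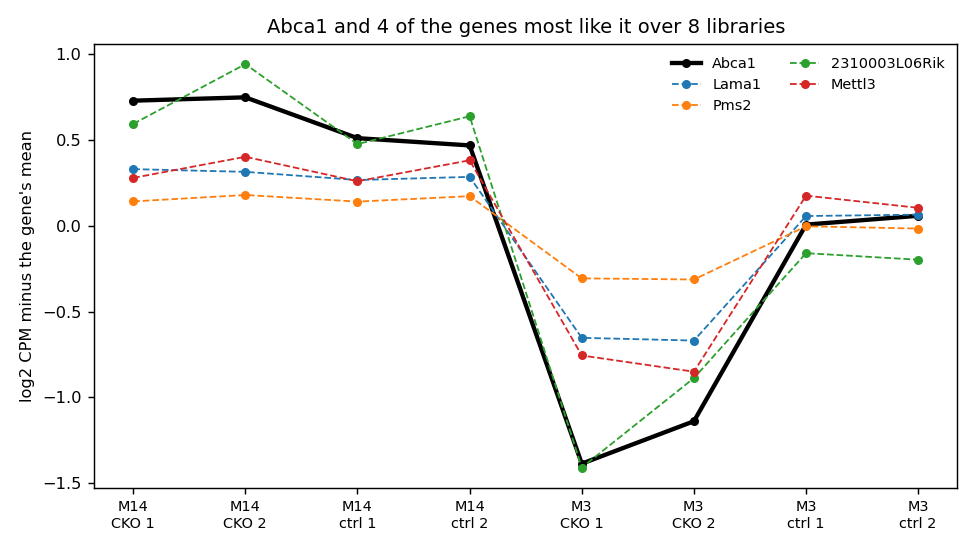
Log2 CPM minus each gene's own mean over the 8 libraries, for Abca1 (black) and 4 of the protein-coding genes most correlated with it; M14 and M3 stand for the Mettl14 and Mettl3 lines, with 2 libraries a group. All 5 genes are lowest in the 2 Mettl3 CKO libraries, whose low Abca1 values took part in the choice of Abca1.

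Because METTL3 and METTL14 act on RNA, the transcripts were searched for GGACU, a frequent m6A context, written GGACT in the sequence files. The longest protein-coding GENCODE M21 transcript of Abca1, of 10262 bases, held 7 such sites, or 0.682 per kb, and 27.5% of 15822 tested protein-coding genes had a lower density. Abcg1 held 6 sites in 5832 bases, or 1.03 per kb, near the median of 1.04 per kb over these genes. Soat1 had the highest density of the set, with 13 sites in 8371 bases (1.55 per kb), then Nr1h2 with 3 in 1999 bases (1.5 per kb). Mylip had 3, Nr1h3 had 1 and Smpdl3a had 0. A match says nothing about whether a site is methylated in these cells.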

How the data were processed

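The submitters' processing notes name HTSeq, HISAT2 2.1.0, Trimmomatic 0.38 and CASAVA, and the build mm10. The authors deposited raw counts per gene for each of the 8 libraries; annotation release, strand setting and multi-mapping reads: not given in the sources used here. Identifiers were matched without version to GENCODE M21 (54409 of 54446). edgeR 4.0.16 in R 4.3.3 was run with filterByExpr (minimum count 10), TMM scaling and robust quasi-likelihood fits of 4 group means to all 8 libraries; calls needed an adjusted p (Benjamini-Hochberg, over 21782 genes) under 0.05. The standard error is the fold change divided by the root of its F statistic. The procedure was tested on simulated data in which few genes were changed, all in the Mettl14 CKO group. Wide differences between groups, as seen here, were not simulated. Members and lists were chosen with earlier results of these data known. All members, Rxra, Rxrb, Rxrg, Srebf1, Apoe, and at most 2 called genes per list with the smallest p in the Mettl14 comparison are named with values; some genes this rule picks are not reported here. Alternatives were RLE and upper-quartile scaling, no filter, DESeq2 1.42.0, limma-voom 3.58.1, fits of only the libraries compared, a replicate block and leaving out each library.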

Additional observations from a re-analysis of the deposited data

Results flagged for a closer look

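Abca1 moved in opposite directions in the lines. It was higher in both Mettl14 CKO libraries than in both Mettl14 control libraries, with a log2 fold change of 0.25, and lower in both Mettl3 CKO libraries than in both Mettl3 control libraries, with a log2 fold change of -1.30. Of all 21782 tested genes, 145 were called as rising in Mettl14 CKO and falling in Mettl3 CKO. Taken singly, 18.0% were called as rising in Mettl14 CKO and 5.78% as falling in Mettl3 CKO. This count is a description and was not tested. The difference between these changes was not tested, because the Mettl3 values took part in choosing the gene. Groups of 2 libraries are too small to look for a library that stands apart.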

How the results depend on the processing

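Over 15 alternative settings, Abca1, Smpdl3a and Soat1 kept their rise and their call in Mettl14 CKO in every one, with log2 fold changes of 0.22 to 0.29, 0.90 to 1.68 and 0.18 to 0.33. The count of members called in Mettl14 CKO was 3 or 4 of 7 in each; DESeq2 called 3. Genes called over all tested were 8801, against 6651 with DESeq2 and 7292 to 8985 with 1 library left out. With the replicate block the count was 8783 and 4 members were called; deviations of same-numbered libraries correlated at -0.03 in the Mettl14 line, 0.07 in the Mettl3 line and 0.11 between the controls, so the numbers were not taken to pair the libraries. Between the controls, DESeq2 called 1 of the 5 tested members in place of 3, and leaving out 1 library gave 2 to 3. The sign changed for these values: with 1 library left out, Abcg1 in Mettl14 CKO ran from -0.56 to 0.10 (above 0 without control replicate 2, at 0.07, or CKO replicate 1, at 0.10) and Nr1h2 from -0.13 to 0.085, and Nr1h2 was 0.032 with upper-quartile scaling and 0.027 with only the compared libraries. Between the controls Nr1h3 ran from -0.74 to 0.035 with 1 library left out (above 0 without Mettl14 control replicate 2), Nr1h2 was -0.062 with upper-quartile scaling, and Soat1 was 0.0028 without the low-count filter. In Mettl3 CKO Mylip was -0.05 with upper-quartile scaling and -0.04 without Mettl3 CKO replicate 1. The cause was not tested. Across settings in Mettl3 CKO, Abca1 ran from -1.41 to -1.14 and Abcg1 from -1.19 to -0.97. Counts of 10 to 27 for Nr1h3 and 25 to 59 for Abcg1 limit what could be detected.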

Other observations

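The other ABCA and ABCG transporter genes, most of them carriers of lipids or of foreign compounds, had median fold changes with the same signs as those of Abca1. In Mettl3 CKO this held for the low-count genes of the list and not for the well-expressed ones as a set. Of 20 listed, 18 were tested; 11 rose and 0 fell in Mettl14 CKO (median log2 fold change 0.60), where 18.0% of all tested genes rose and 22.4% fell, and the value was above 0 for 17 of the 18. In Mettl3 CKO 2 rose and 2 fell (median -0.51), where 15.1% of all tested genes rose and 5.78% fell, and the value was below 0 for 15 of the 18. Over all tested genes the median was 0.03 in both comparisons. Abca3, a lipid transporter of lung surfactant, rose by 0.49 ± 0.06 in Mettl14 CKO (SE, edgeR adjusted p = 3.85e-12) and by 0.14 ± 0.05 in Mettl3 CKO (SE, edgeR adjusted p = 0.0223). Abca5 rose by 0.72 ± 0.10 in Mettl14 CKO (SE, edgeR adjusted p = 2.25e-10), and had a log2 fold change of -0.07 ± 0.08 in Mettl3 CKO (edgeR adjusted p = 0.585). The 2 that fell in Mettl3 CKO, Abca6 and Abca12, are named after their values were seen. Abca12, a lipid transporter of the skin, had 1.56 and 2.01 CPM in Mettl14 CKO, against 0.576 and 1.38 CPM in Mettl14 control, and 2.44 and 1.55 CPM in Mettl3 CKO, against 2.90 and 3.80 CPM in Mettl3 control. It rose by 0.87 ± 0.35 in Mettl14 CKO (SE, edgeR adjusted p = 0.0391) and fell by 0.74 ± 0.26 on the log2 scale in Mettl3 CKO (SE, edgeR adjusted p = 0.0312). Abca6 fell by 0.73 ± 0.18 in Mettl3 CKO (SE, edgeR adjusted p = 0.00118), and its value in Mettl14 CKO was 0.14 ± 0.17 (edgeR adjusted p = 0.58). The well-expressed ones (average log2 CPM 3 or more) were Abca2, Abca3, Abca5, Abca7 and Abcg2. Their values in Mettl3 CKO were 0.27, 0.14, -0.07, 0.15 and -0.05, in that order, and all were above 0 in Mettl14 CKO. The listed genes of lower abundance were all below 0 in Mettl3 CKO. Many genes of this family had few counts, and the lowest eighth of all tested genes had medians of 0.63 in Mettl14 CKO and -0.52 in Mettl3 CKO. The part of that shift in the list's medians was not tested.

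Another list held genes of oxysterol metabolism, which makes and breaks down natural ligands of LXR. Of 14 listed, 13 were tested; 6 rose and 1 fell in Mettl14 CKO (median 0.60), beside 18.0% and 22.4% of all tested genes. In Mettl3 CKO 3 rose and 0 fell (median 0.11), beside 15.1% and 5.78%. Ebp and Dhcr7, enzymes of the late steps of cholesterol synthesis, rose in both lines; Hsd3b7, Ephx1 and Cyp11a1 rose in Mettl14 CKO as well, where Cyp39a1 fell. Dhcr7 had 79.4 and 72.6 CPM in Mettl14 CKO, against 31.2 and 29.8 CPM in Mettl14 control, and 47.0 and 48.1 CPM in Mettl3 CKO, against 23.8 and 23.3 CPM in Mettl3 control. It rose by 1.32 ± 0.06 in Mettl14 CKO (SE, edgeR adjusted p = 1.95e-41) and by 1.01 ± 0.07 in Mettl3 CKO (SE, edgeR adjusted p = 1.49e-27).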
